A study of Mus musculus with 12 samples.

Results

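The smooth muscle contractile genes described here are 10 genes that make up or control the force-producing apparatus of smooth muscle: Acta2, Tagln, Cnn1, Myh11, Lmod1, Mylk, Myl9, Tpm1, Tpm2 and Smtn. They were taken by name, as all probes that the platform annotation gives to them. The list was chosen with earlier results of these data known, so counts of its members are not independent of these data. Of the 10 genes, 9 had a probe, 17 of the 25697 probes in all. The annotation gave no probe to Myl9, and the single Cnn1 probe was at background on all 12 arrays. The other 8 genes are among the 8420 genes tested, and the probe read for each was above background on all 12 arrays.

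The arrays were Illumina bead arrays, and the RNA came from primary fibroblasts (MEFs) of C57BL6/J mouse embryos (E15.5). The cells were Cry1-/-Cry2-/- (dKO), lacking both cryptochromes, which are repressors of the circadian clock, or control, and received 1 µM of the synthetic glucocorticoid dexamethasone (Dex) or ethanol (EtOH) over 16 hours. Control cells are labelled Cry1+/-Cry2+/-, so each control carries 1 intact copy of both genes, whereas the design text names them WT. The 4 groups hold 3 arrays each, labelled as biological replicates, and the labels do not say whether these came from separate embryos or cultures. If they did not, the p-values measure only the spread between these arrays.

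In smooth muscle, filaments of actin slide along filaments of myosin once myosin light chain kinase has phosphorylated the regulatory light chain of myosin, and tropomyosins, calponin and leiomodin dress, restrain or build the actin filament. Most of these genes are known targets of serum response factor (SRF), which binds a sequence called the CArG box and works with myocardin or the myocardin-related factors. Cultured fibroblasts are known to make several of the same proteins for their stress fibres, so the genes are not restricted to muscle.

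Levels are given as log2 of the background-corrected, quantile-normalized signal, and a change is the difference of 2 group means with the standard error (SE) of a linear model over the 12 arrays. A gene was called when its adjusted p in limma (Benjamini-Hochberg over the 8420 genes) was under 0.05. Arrays had 42.6% to 44.9% of their probes above background and median signals of 187 to 216, and the number of arrays, 3 a group, and the spread between them limit the precision. The Dex treatment was visible in Fkbp5, a receptor co-chaperone induced by glucocorticoids, whose level averaged 11.67 ± 0.11 in dKO Dex and 6.85 ± 0.26 in dKO EtOH (SD, n = 3 each), and 12.28 ± 0.25 in control Dex and 7.77 ± 0.06 in control EtOH. The genotype was visible in Per2, a clock gene held down through cryptochromes, at 10.24 ± 0.09 in dKO Dex, 10.04 ± 0.15 in dKO EtOH, 6.84 ± 0.24 in control Dex and 7.18 ± 0.12 in control EtOH (SD, n = 3 each). No array read Cry1 above background, the Cry2 probe was not lower in dKO, and the position of both probes is unstated, so they check nothing. On the third principal component of the 8420 genes (14.9% of the variance), control Dex replicate 3 (-31.13) and dKO EtOH replicates 1 (-16.36) and 2 (-14.09) stood apart from the other arrays, as an earlier analysis of these data had found. Results are therefore given with and without these 3 arrays, and the fit without them leaves replicate 3 alone in dKO EtOH, with its spread taken from the other groups.

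The sequences before the start of Acta2, Lmod1 and Mylk are shown because Lmod1 and Mylk rose with Dex while Acta2, the best-known CArG-driven gene of the group, showed no change on its brightest probe. Each is the 250 bases upstream of a transcription start in the RefSeq promoter table (GRCm38.p6), 5′ to 3′ on the gene's own strand, at chr19:34255374-34255623 on the minus strand for Acta2, chr1:135324563-135324812 on the plus strand for Lmod1 and chr16:34784700-34784949 on the plus strand for Mylk. For Acta2 and Mylk the start used by the table lies inside the outermost bounds that RefSeq gives the gene. Capitals mark AGAACA, the core letters of a glucocorticoid receptor site, on either strand, and CArG boxes, including those in which 1 base of the core is not A or T. The looser CArG search was added after the sequences were seen.
Acta2: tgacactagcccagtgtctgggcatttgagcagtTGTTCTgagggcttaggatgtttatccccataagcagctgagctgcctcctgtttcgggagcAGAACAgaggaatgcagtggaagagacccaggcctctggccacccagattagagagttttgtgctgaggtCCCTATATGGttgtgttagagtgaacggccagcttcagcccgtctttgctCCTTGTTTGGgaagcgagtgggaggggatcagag
Lmod1: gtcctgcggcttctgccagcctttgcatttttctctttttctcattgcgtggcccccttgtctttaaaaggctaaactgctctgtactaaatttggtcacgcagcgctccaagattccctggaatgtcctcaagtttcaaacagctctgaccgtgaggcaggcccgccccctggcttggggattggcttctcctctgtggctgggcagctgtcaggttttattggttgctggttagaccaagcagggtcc
Mylk: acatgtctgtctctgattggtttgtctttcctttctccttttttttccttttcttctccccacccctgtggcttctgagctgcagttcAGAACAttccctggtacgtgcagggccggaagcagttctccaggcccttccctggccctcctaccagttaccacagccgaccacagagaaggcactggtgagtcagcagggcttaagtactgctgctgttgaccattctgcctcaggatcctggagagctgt

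Acta2 held the looser CArG box at 2 places, beginning 84 and 34 bases before the start, and AGAACA or its complement at 216 and 154 bases before it. Mylk held AGAACA once, 162 bases before its start, and Lmod1 held none of these letters in its window. The search covered windows of 300 bases (250 before and 50 after a start), which the table had for 8 of the 10 genes and not for Tagln and Myh11. A CArG box proper stood in 1 of these 8 windows (Myl9), against 1.63% of all 32851 windows, and the looser box in 2 (Acta2 and Myl9), against 8.5%. AGAACA on either strand stood in 2 of the 8 (Acta2 and Mylk), against 19% of all windows, and the E-box CACGTG, through which the clock factors act, in 0 of 8, against 7.15%. The looser box has exactly 1 core base that is not A or T and so never coincides with the box proper, and no matches of different motifs overlapped in these 8 windows. A match is a description of the letters and not evidence of a bound site.

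Dex raised 3 of the 8 measured genes in dKO MEFs and the same 3 in control MEFs: Myh11, Lmod1 and Mylk, which encode the myosin motor, a builder of actin filaments and the kinase that switches the motor on. Their increases lay between 1.57-fold and 2.04-fold in dKO cells and between 1.47-fold and 1.84-fold in control cells. No member fell. Of all 8420 genes, 14.6% were called in dKO cells (8.62% higher and 5.99% lower) and 20.3% in control cells (8.85% higher and 11.4% lower). The same 3 genes were called without the 3 arrays set apart, when 7.99% of all genes were called in dKO and 23.3% in control cells. The Dex arrays of 5 of the 8 genes lay wholly above the EtOH arrays in dKO cells, against 17.7% of all genes, and those of 3 of the 8 in control cells, against 16%. The median change of the 8 genes was 0.39 in dKO and 0.00 in control MEFs, against 0.03 and -0.04 over all genes. The genes that were not called are Acta2, Tagln, Tpm1, Tpm2 and Smtn.

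**Figure D1:**
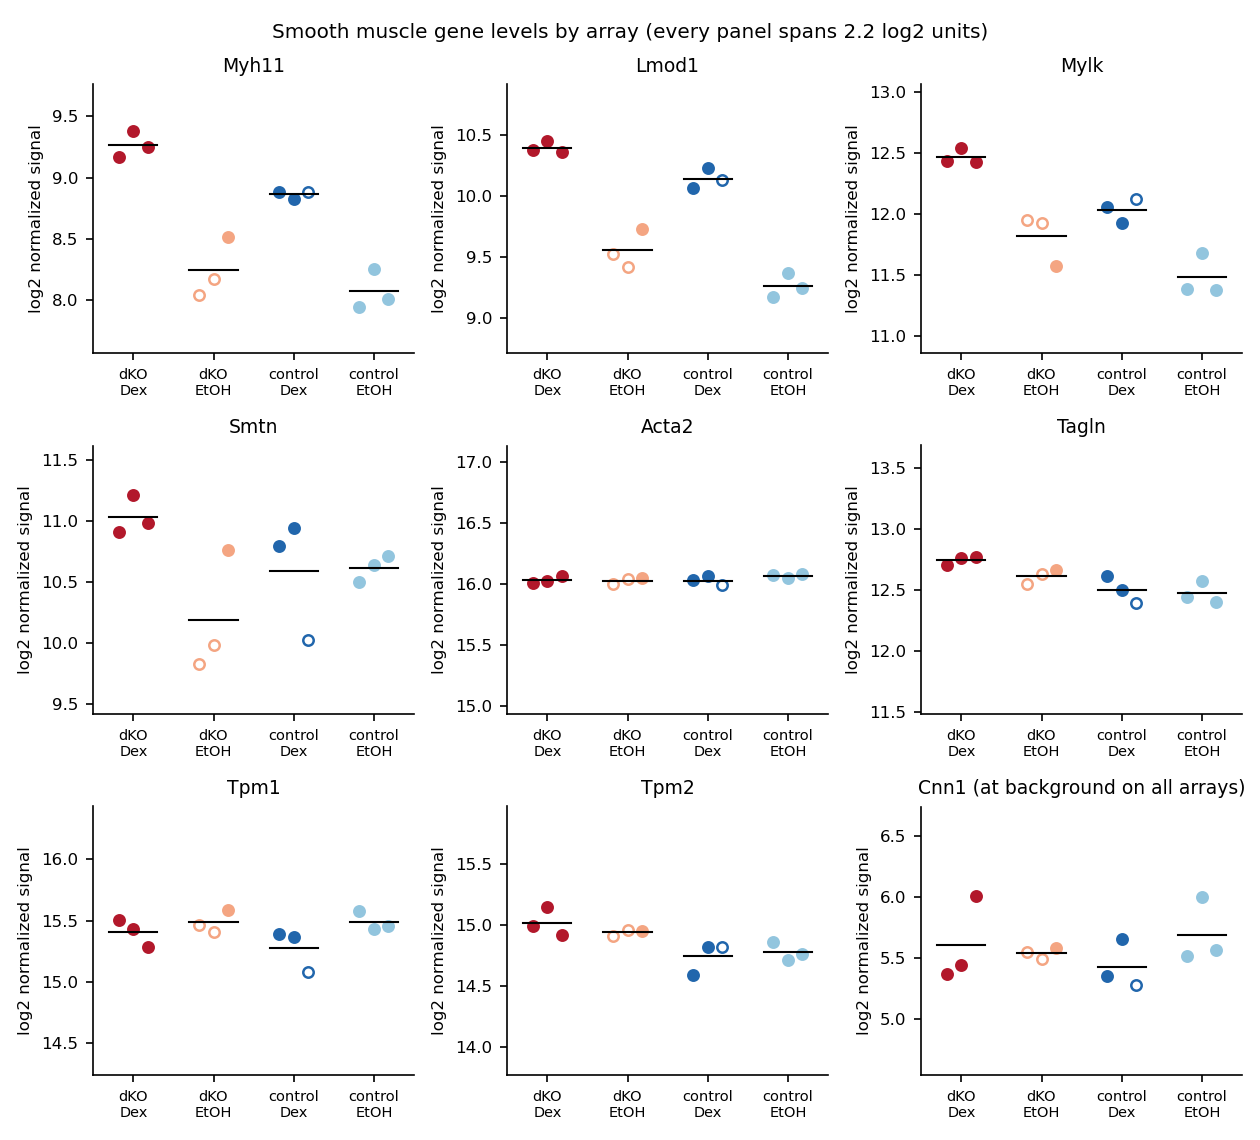
Log2 normalized signal (vertical axis) of the 8 tested genes and of Cnn1 on each of the 12 arrays by group. Points are arrays, lines are group means, open points are the 3 arrays set apart, and every panel spans 2.2 log2 units. The Dex arrays of Myh11, Lmod1 and Mylk lie above the EtOH arrays of the same genotype, Acta2 stays between 15.99 and 16.08, and Cnn1 is at background on all arrays.

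Myh11 encodes the smooth muscle myosin heavy chain, the motor protein of the thick filament and the most restricted marker of the smooth muscle lineage among these genes. Its probe (ILMN_2622217) read 9.17, 9.38 and 9.25 in dKO Dex and 8.04, 8.17 and 8.51 in dKO EtOH. It read 8.88, 8.82 and 8.88 in control Dex and 7.94, 8.25 and 8.01 in control EtOH. All 6 Dex arrays were higher than all 6 EtOH arrays, and all dKO Dex arrays were higher than all control Dex arrays. The Dex change was 1.03 ± 0.13 (SE, limma adjusted p = 0.000281) in dKO cells, or 2.04-fold with a 95% interval of 1.67 to 2.48. In control cells it was 0.79 ± 0.13 (limma adjusted p = 0.00111), or 1.73-fold with an interval of 1.42 to 2.11. Without the 3 arrays set apart, Myh11 still rose, by 0.76 in dKO and 0.79 in control cells.

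Mylk encodes myosin light chain kinase, the calcium-activated enzyme that starts contraction. Its brighter probe (ILMN_1219471) read 12.43, 12.54 and 12.42 in dKO Dex and 11.95, 11.93 and 11.57 in dKO EtOH. The readings were 12.06, 11.93 and 12.12 in control Dex and 11.38, 11.68 and 11.38 in control EtOH. The dKO Dex arrays were the highest, dKO EtOH replicate 3 lay among the control EtOH arrays, and neither Dex group overlapped its own EtOH group. Dex raised it by 0.65 ± 0.13 in dKO cells (limma adjusted p = 0.00512, 1.57-fold, interval 1.30 to 1.90) and by 0.55 ± 0.13 in control cells (limma adjusted p = 0.00841, 1.47-fold, interval 1.21 to 1.78). Without the 3 arrays the changes were 0.89 and 0.51, both called. The other Mylk probe (ILMN_2662602) moved the same way but set the arrays in another order, with 12.02, 11.88 and 11.73 in dKO Dex, 11.89, 11.79 and 10.97 in dKO EtOH, 11.40, 11.52 and 11.98 in control Dex and 10.71, 10.95 and 10.69 in control EtOH. On this probe all 3 arrays set apart, dKO EtOH replicates 1 and 2 and control Dex replicate 3, read within the range of the dKO Dex arrays. With each of the 12054 probes as an item, its Dex change was 0.33 in dKO cells (limma adjusted p = 0.364) and 0.85 in control cells (limma adjusted p = 0.025), and without the 3 arrays it was 0.91 (adjusted p = 0.0105) and 0.68 (adjusted p = 0.00545). Of all probes, 13% were called in dKO and 17.2% in control cells, and 6.64% and 20.6% without the 3 arrays. Myl9 encodes the regulatory light chain on which this kinase acts and was not measured here.

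Lmod1 encodes leiomodin, which starts the growth of new actin filaments in smooth muscle. Its probe (ILMN_2604885) read 10.37, 10.45 and 10.36 in dKO Dex and 9.52, 9.42 and 9.73 in dKO EtOH. It read 10.06, 10.22 and 10.12 in control Dex and 9.17, 9.36 and 9.24 in control EtOH. The 4 groups did not overlap, with dKO Dex highest, then control Dex, dKO EtOH and control EtOH. The Dex change was 0.84 ± 0.10 in dKO cells (limma adjusted p = 0.000235, 1.78-fold, interval 1.53 to 2.09). In control cells it was 0.88 ± 0.10 (limma adjusted p = 0.00011, 1.84-fold, interval 1.57 to 2.15). Without the 3 arrays Lmod1 rose by 0.66 and 0.88.

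Smtn encodes smoothelin, an actin-binding protein of contractile smooth muscle, and its arrays followed neither treatment nor genotype alone. Its brightest probe (ILMN_2695181) read 10.90, 11.21 and 10.98 in dKO Dex and 9.82, 9.98 and 10.76 in dKO EtOH. It read 10.79, 10.94 and 10.02 in control Dex and 10.50, 10.63 and 10.71 in control EtOH. The 3 low readings are exactly the 3 arrays set apart, and the other 9 arrays lay between 10.50 and 11.21. The fitted Dex change was 0.84 ± 0.26 in dKO cells, just short of the threshold (limma adjusted p = 0.0501), and -0.03 ± 0.26 in control cells (limma adjusted p = 0.952). Without the 3 arrays these changes were 0.27 and 0.25, neither of them called, and with dKO EtOH replicate 3 alone left out the change in dKO cells was called at 1.13. The next Smtn probe (ILMN_2955973) had its 3 lowest readings on the same arrays, at 9.37, 9.22 and 9.42. Its Dex change in dKO cells, called over the 12054 probes at 0.96 (limma adjusted p = 0.0243), was 0.41 (adjusted p = 0.101) without them. The third Smtn probe was dim, between 6.23 and 7.04, and above background on 11 arrays.

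Acta2 encodes smooth muscle alpha-actin, the thin filament actin of smooth muscle and of activated fibroblasts. Its brightest probe (ILMN_2693895) averaged 16.03 ± 0.03 in dKO Dex and 16.03 ± 0.03 in dKO EtOH, and 16.03 ± 0.04 in control Dex and 16.07 ± 0.02 in control EtOH (SD, n = 3 each). All 12 readings lay between 15.99 and 16.08, and the groups overlapped. The Dex change was 0.00 ± 0.08 in dKO cells (95% interval -0.16 to 0.17) and -0.04 ± 0.08 in control cells (interval -0.20 to 0.13). This probe gave deposited signals of 65050 to 69533, while the brightest probe of any array gave 70109 to 72084, only 1.01 to 1.10 times as much. Little room was therefore left above it on the arrays.

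The dimmer Acta2 probes varied more. The probe ILMN_2710353, whose signal lay 1.28 to 2.63 times under the brightest probe of its array, read 14.95, 15.14 and 15.27 in dKO Dex and 15.79, 15.86 and 14.87 in dKO EtOH. It read 15.21, 15.04 and 15.71 in control Dex and 14.90, 14.84 and 14.61 in control EtOH. Its 3 highest readings, 15.71, 15.79 and 15.86, are the 3 arrays set apart, which were the lowest for Smtn. No change of this probe was called, at -0.38 for Dex in dKO and 0.54 for Dex in control cells with these arrays and 0.25 and 0.34 without them. The actin genes have closely related sequences, and how well each probe tells them apart was not tested.

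**Figure D2:**
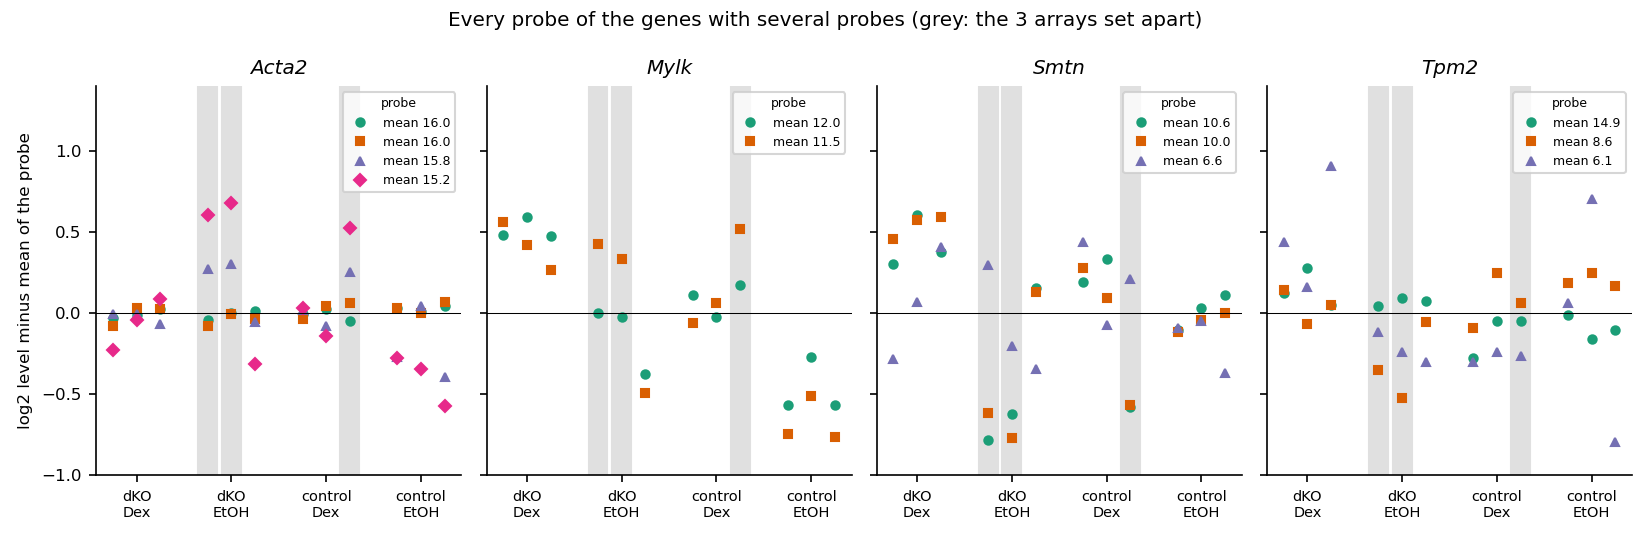
Log2 level less the probe's own mean (vertical axis) for every probe of Acta2, Mylk, Smtn and Tpm2 on each array by group, with the 3 arrays set apart in grey and the mean level of each probe in the legend. In the grey columns the dimmest Acta2 probe (mean 15.2) is high and the 2 brighter Smtn probes are low, while the brightest Acta2 probe stays flat.

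Of the remaining thin filament genes, Tagln, Tpm1 and Tpm2 showed no called change on the probe read for each. Tagln encodes transgelin, an actin-bundling protein made early in smooth muscle differentiation, and averaged 12.75 ± 0.04 in dKO Dex and 12.61 ± 0.06 in dKO EtOH, and 12.50 ± 0.11 in control Dex and 12.47 ± 0.09 in control EtOH (SD, n = 3 each). Its Dex change was 0.13 (95% interval -0.07 to 0.33) in dKO and 0.03 (interval -0.17 to 0.23) in control cells. Tpm1 and Tpm2 encode the alpha and beta tropomyosins, which lie along the actin filament. Tpm1 averaged 15.41 ± 0.11 in dKO Dex and 15.48 ± 0.09 in dKO EtOH, and 15.28 ± 0.17 in control Dex and 15.49 ± 0.08 in control EtOH (SD, n = 3 each). Its control Dex arrays lay below its control EtOH arrays without overlap, yet the change of -0.21 ± 0.11 was not called (limma adjusted p = 0.217). The deposited signal of this probe, 32306 to 53360, lay only 1.33 to 2.21 times under the brightest probe of its array, which left little room above it. Tpm2 averaged 15.02 ± 0.12 in dKO Dex and 14.94 ± 0.02 in dKO EtOH, and 14.75 ± 0.13 in control Dex and 14.78 ± 0.07 in control EtOH (SD, n = 3 each), and its Dex changes were 0.08 (interval -0.14 to 0.29) and -0.03 (interval -0.25 to 0.18). This probe was also bright, 1.91 to 2.81 times under the brightest of its array. A dimmer Tpm2 probe (ILMN_2482209) read 8.07 to 8.84, with a Dex change of 0.35 in dKO cells (limma adjusted p = 0.104 over the 12054 probes), which was 0.09 without the 3 arrays (adjusted p = 0.787), and of -0.13 in control cells (limma adjusted p = 0.568). A further Tpm2 probe was above background on only 4 arrays. The interval of Tagln leaves out a rise as large as that of Myh11 in either genotype. Cnn1 encodes calponin, which damps the myosin motor, and its single probe read 5.28 to 6.01 without passing the detection threshold on any array, so its level is known only as a bound.

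**Figure D3:**
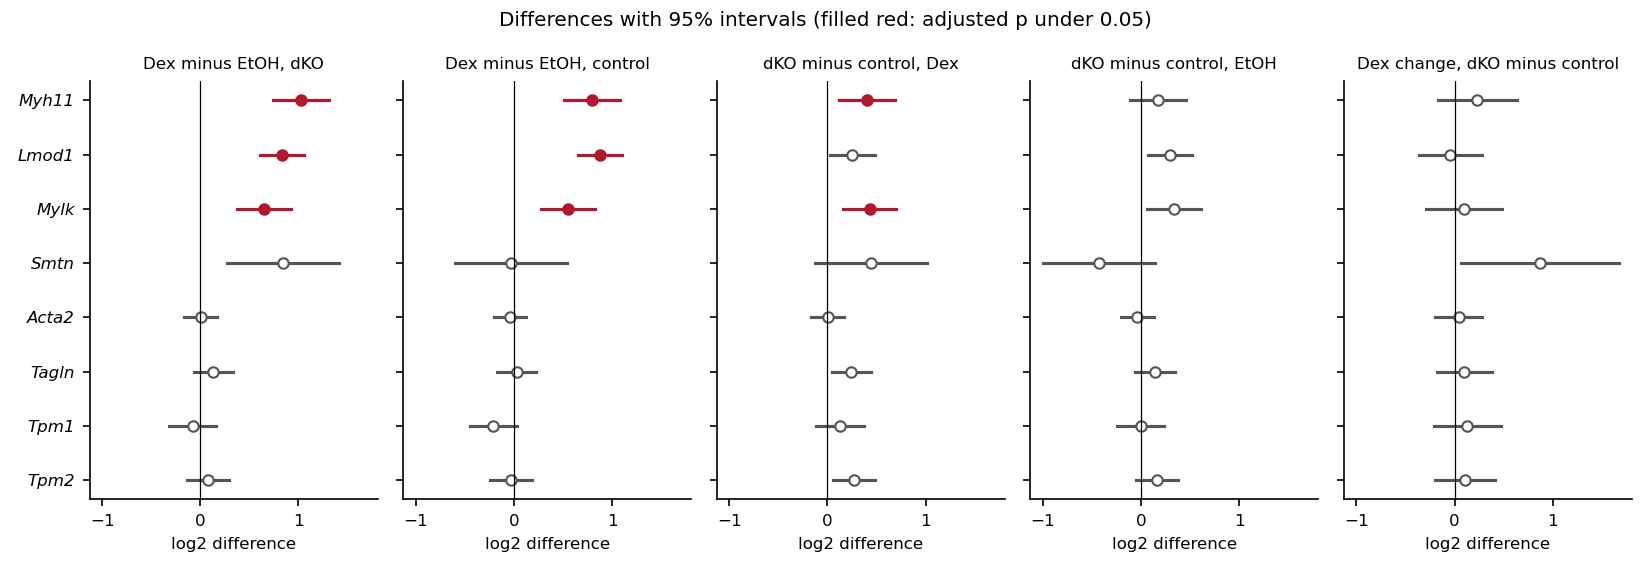
Differences of group means on the log2 scale (horizontal axis) with 95% intervals for the 8 tested genes in the 5 comparisons, in which filled red points have an adjusted p under 0.05. Myh11, Lmod1 and Mylk are called for Dex in both genotypes, Myh11 and Mylk for genotype under Dex, and none for genotype under EtOH or for the difference of the Dex changes.

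The difference between the Dex changes of the 2 genotypes (dKO less control) was called for none of the 8 genes by limma, while 2.29% of all genes were called. At an unadjusted p under 0.05, 1 member remained, Smtn, at 0.87 ± 0.37 (limma adjusted p = 0.191), and its difference was 0.02 without the 3 arrays set apart (0.808% of all genes called) and called at 1.16 without dKO EtOH replicate 3 alone. The difference for Myh11 was 0.23 with a 95% interval of -0.17 to 0.63, that for Lmod1 -0.04 with an interval of -0.36 to 0.28, and that for Mylk 0.09 with an interval of -0.29 to 0.48. The median difference over the 8 genes was 0.11, against 0.08 over all genes. A Dex response that differed between the genotypes by up to these intervals cannot be told from an equal one here.

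**Figure D4:**
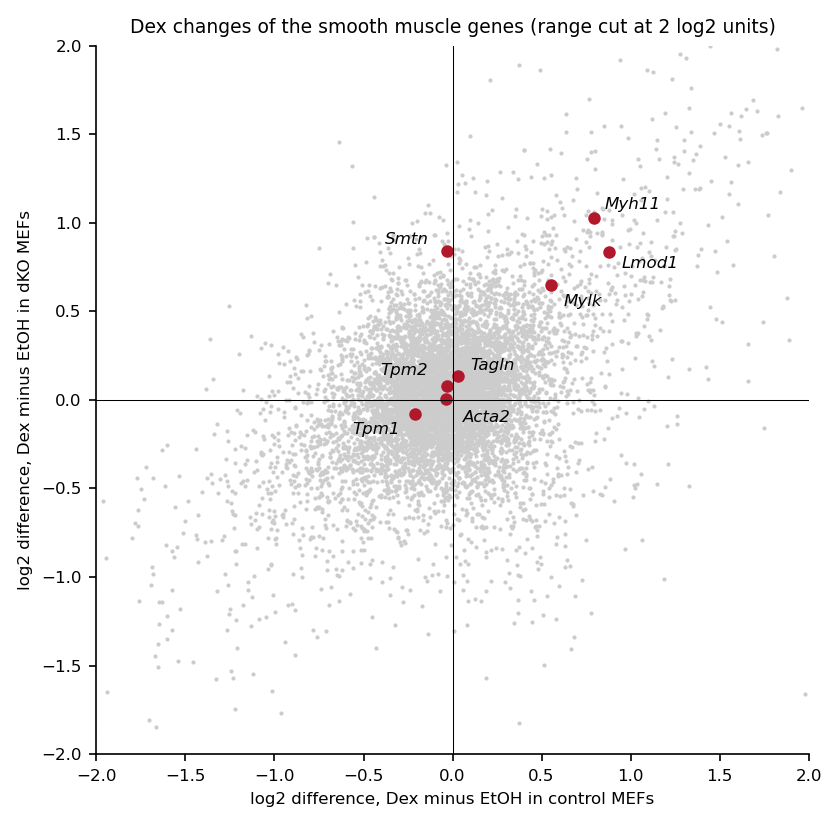
Dex change in dKO MEFs (vertical axis) against Dex change in control MEFs (horizontal axis), both as log2 differences, for the 8420 tested genes in grey and the 8 smooth muscle genes in red, with 82 genes beyond the 2 log2 units shown. Myh11, Lmod1 and Mylk lie in the upper right, Smtn is high in dKO only (0.84 against -0.03), and Acta2, Tagln, Tpm1 and Tpm2 lie near the origin.

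Under Dex, 2 of the 8 genes were higher in dKO than in control MEFs, Myh11 by 0.40 ± 0.13 (limma adjusted p = 0.0478, 1.32-fold) and Mylk by 0.43 ± 0.13 (limma adjusted p = 0.0315, 1.35-fold), while 19.7% of all genes were called (9.89% higher). All 8 differences were positive, with a median of 0.26 against 0.01 over all genes. Without the 3 arrays both remained called, at 0.41 for Myh11 and 0.47 for Mylk, with 28% of all genes called. Both calls are close to the threshold, and leaving out control Dex replicate 1 or 2, or any 1 of the dKO Dex arrays, ended both. Over all 12 arrays left out in turn the differences were 0.35 to 0.45 for Myh11 and 0.37 to 0.47 for Mylk. These Mylk values come from its brighter probe, which was also called with each probe as an item (limma adjusted p = 0.0399). In that fit the other Mylk probe (ILMN_2662602) was not called, at 0.24 (95% interval -0.26 to 0.74, limma adjusted p = 0.532). Its difference without the 3 arrays was 0.41. Tagln at 0.24 (limma adjusted p = 0.083), Tpm2 at 0.27 (limma adjusted p = 0.0738) and Lmod1 at 0.26 (limma adjusted p = 0.105) did not pass, although their dKO Dex and control Dex arrays did not overlap. In all, 5 of the 8 genes had all dKO Dex arrays above all control Dex arrays, against 18.8% of all genes.

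Under EtOH limma called none of the 8 genes between dKO and control MEFs, with 2 at an unadjusted p under 0.05 (Lmod1 and Mylk), while 26.6% of all genes were called. Lmod1 was 0.30 ± 0.10 higher in dKO (limma adjusted p = 0.0513) and Mylk 0.34 ± 0.13 higher (limma adjusted p = 0.0679). Without the 3 arrays, where dKO EtOH is 1 array, Lmod1 was called at 0.47 (adjusted p = 0.0324), as were 16.7% of all genes. Of the 12054 probes 23.9% were called. The other Mylk probe was called at 0.77 (limma adjusted p = 0.0326) but not without the 3 arrays, and the dimmer Tpm2 probe ILMN_2482209 was called at -0.51 (limma adjusted p = 0.0175), against -0.25 (adjusted p = 0.329) without them. The median difference was 0.15, against -0.05 over all genes. The dimmer Acta2 probes ILMN_2710353 and ILMN_2710354 were at 0.72 and 0.38 (limma adjusted p = 0.0558 and 0.0701 over the 12054 probes), both with an unadjusted p under 0.05. Without the 3 arrays these probes were at 0.09 and 0.15.

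Across the 12 arrays the 8 profiles did not move as 1 unit. The Pearson correlations of the 28 pairs ran from -0.55 (Mylk with Acta2) through a median of 0.33 to 0.98 (Lmod1 with Myh11), and 20 were positive. These points share the 4 groups, so the values describe likeness and not independent covariation. Acta2 entered the pairs and the mean profile below through its brightest probe. That probe spanned only 0.09 log2 units over the 12 arrays, near the top of the signal range, so its correlations say little about Acta2. Among all other genes, Ptgis (prostacyclin synthase, r = 0.95), Popdc2 (r = 0.95), Dlx2 (r = 0.94), Wars (r = 0.94) and Chst8 (r = 0.94) had profiles most like the mean standardized profile of the 8. Ptgis averaged 13.82 in dKO Dex, 12.57 in dKO EtOH, 12.81 in control Dex and 12.70 in control EtOH.

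The factors that drive contractile genes were examined as a list of SRF and its cofactors, of which 9 of 14 were tested. Dex raised 3 of the 9 in dKO and 4 of the 9 in control MEFs and lowered none, while 8.62% of all genes were called higher in dKO and 8.85% in control cells. Both counts take in Myocd, which was detected on the Dex arrays only. Myocd, which encodes myocardin, the SRF coactivator of cardiac and smooth muscle, read 8.33, 8.42 and 7.70 in dKO Dex and 5.17, 5.40 and 5.35 in dKO EtOH. It read 7.39, 7.77 and 7.34 in control Dex and 5.92, 5.55 and 5.70 in control EtOH. It was above background on all 6 Dex arrays and on none of the 6 EtOH arrays, so it passed the filter only through the Dex groups and its change is a lower bound. Myocd was at least 3.99-fold higher with Dex in dKO cells and at least 2.46-fold higher in control cells. These bounds take for each EtOH array the dimmest reading above background on that array. The limma adjusted p-values, 1.51e-06 in dKO and 5.02e-05 in control cells, belong to the fit on the undetected EtOH readings and not to the bounds. Under Dex Myocd was 0.65 ± 0.19 higher in dKO than in control MEFs (limma adjusted p = 0.0299), with overlapping arrays. Without the 3 arrays this difference was 0.57.

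Srf itself read 10.80 to 11.23 on the 12 arrays and was not called in any comparison, and the genes of the myocardin-related factors, Mrtfa and Mrtfb, were above background on at most 1 array and not tested. Csrp2, a LIM protein that bridges SRF and GATA factors in smooth muscle, averaged 14.75 ± 0.08 in dKO Dex and 13.92 ± 0.01 in dKO EtOH, and 14.74 ± 0.11 in control Dex and 14.03 ± 0.11 in control EtOH (SD, n = 3 each). Dex thus raised it by 0.84 and 0.72. Gata6, a GATA factor of vascular smooth muscle, rose by 0.79 in dKO and 0.59 in control cells, and was lower in dKO than in control cells by a change of -1.36 under Dex and -1.57 under EtOH. Under median scaling its Dex change in control cells was 0.45 and not called (adjusted p = 0.0677). Fhl1 and Fhl2, LIM-domain partners of SRF and of the actin cytoskeleton, were higher in dKO than in control cells, Fhl1 by 0.86 under Dex and 1.13 under EtOH and Fhl2 by 0.38 and 0.50. Under median scaling the EtOH difference of Fhl2 was 0.24 and not called (adjusted p = 0.15).

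**Figure D5:**
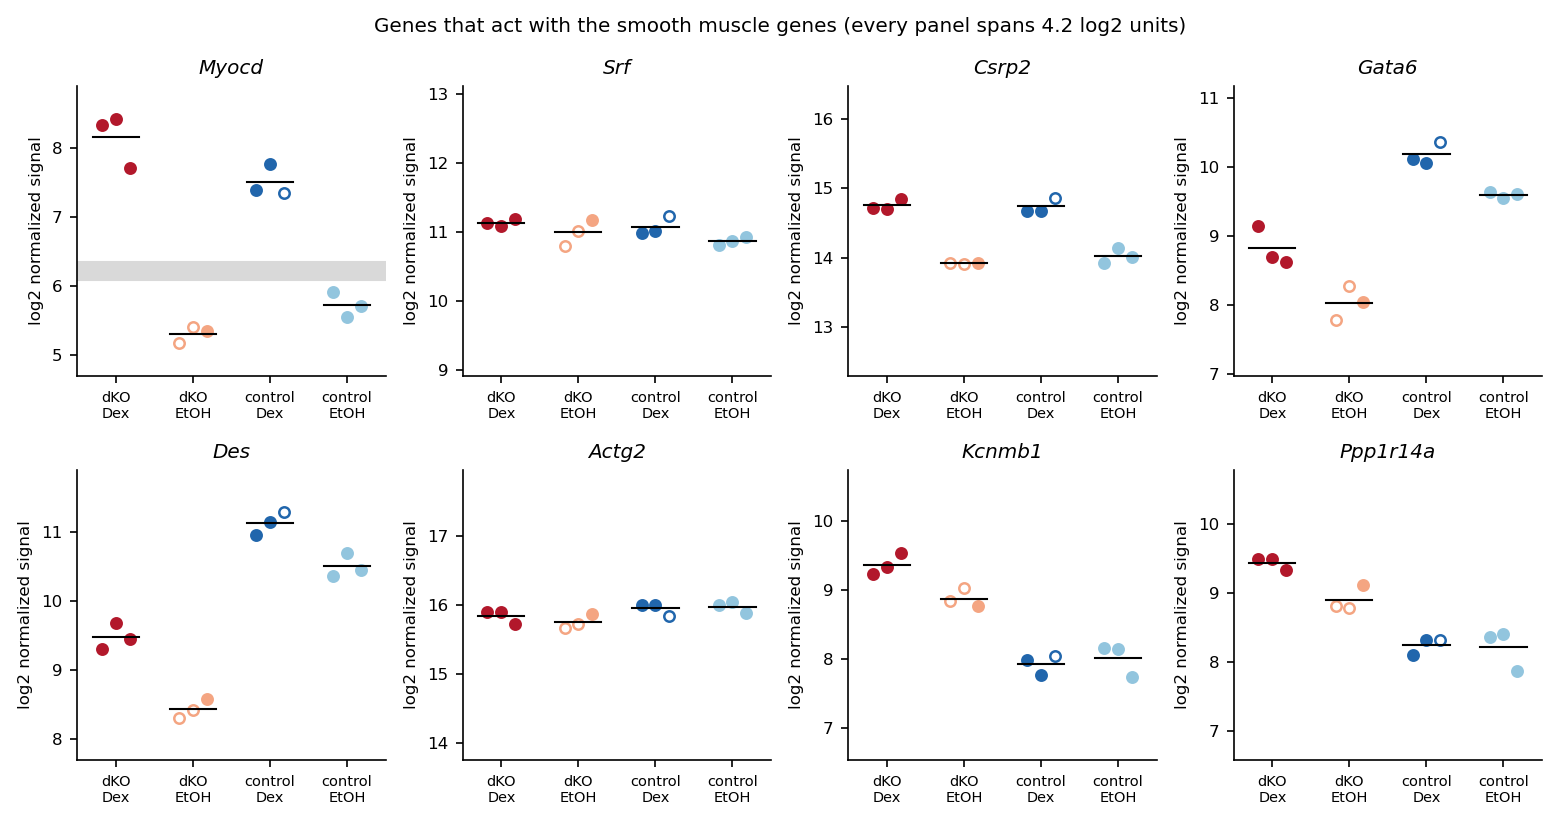
Log2 normalized signal (vertical axis) of Myocd, Srf, Csrp2, Gata6, Des, Actg2, Kcnmb1 and Ppp1r14a on each array by group. Points are arrays, lines are group means, open points are the 3 arrays set apart, the grey band for Myocd is the range of the dimmest readings above background, and every panel spans 4.2 log2 units. Myocd clears the band on the 6 Dex arrays only, and Gata6 and Des are lower in dKO than in control MEFs.

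Of the other contractile and thin filament genes, 15 of 26 were tested. Dex raised 2 and lowered 1 in dKO cells, where 14.6% of all genes were called, and raised 1 in control cells, where 20.3% were. The gene raised in control cells was Tmod1, an actin-capping tropomodulin, which was at least 1.38-fold higher with Dex. Its limma adjusted p of 0.000946 belongs to the fit on the undetected EtOH readings and not to this bound. Tmod1 was above background on the 3 control Dex arrays and on no other, so it passed the filter only through the group where it was high. Tmod3, a related tropomodulin, rose in dKO cells by 0.56 (limma adjusted p = 0.0265), and was at 0.20 and not called without the 3 arrays (adjusted p = 0.328). Actg2, which encodes the gamma actin of visceral smooth muscle, read 15.66 to 16.04, near the top of the arrays' range, and was not called. Kcnmb1, the smooth muscle beta subunit of a calcium-activated potassium channel, averaged 9.36 ± 0.15 in dKO Dex and 8.87 ± 0.13 in dKO EtOH, and 7.93 ± 0.15 in control Dex and 8.02 ± 0.24 in control EtOH (SD, n = 3 each). It was higher in dKO by 1.44 under Dex (limma adjusted p = 2.95e-05) and 0.85 under EtOH (limma adjusted p = 0.00104). Its Dex change of 0.49 in dKO cells (limma adjusted p = 0.0359) was 0.60 and not called without the 3 arrays (adjusted p = 0.105). Myh10, a non-muscle myosin heavy chain, fell with Dex in dKO cells (-0.75, limma adjusted p = 0.0108), and was lower in dKO than in control cells under Dex (-0.86, limma adjusted p = 0.00364), while its Dex change was -0.69 and not called (adjusted p = 0.101) without the 3 arrays. Cald1, the actin-binding brake caldesmon, was 0.83 higher in dKO under EtOH (limma adjusted p = 0.0115), and 0.43 and not called without the 3 arrays (adjusted p = 0.0607).

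Of the genes of myosin phosphatase and RhoA signalling, which set how long the light chain stays phosphorylated, 13 of 21 were tested, with 3 higher and 1 lower by Dex in dKO cells and 2 higher and 1 lower in control cells, against 14.6% of all genes called in dKO and 20.3% in control cells. Ppp1r14a encodes CPI-17, an inhibitor of myosin phosphatase found in smooth muscle, and averaged 9.43 ± 0.10 in dKO Dex and 8.90 ± 0.19 in dKO EtOH, and 8.24 ± 0.13 in control Dex and 8.21 ± 0.30 in control EtOH (SD, n = 3 each). It was higher in dKO by 1.19 under Dex (limma adjusted p = 0.000219) and by 0.69 under EtOH (limma adjusted p = 0.00636). Its Dex change in dKO cells was 0.54 (limma adjusted p = 0.0359), and 0.32 and not called without the 3 arrays (adjusted p = 0.429). Arhgef2, an exchange factor for RhoA, fell with Dex in both genotypes (-0.53 in dKO, limma adjusted p = 0.0173, and -0.48 in control cells, limma adjusted p = 0.0196), and in dKO cells was at -0.29 and not called without the 3 arrays (adjusted p = 0.244). Ppp1r12c, a regulatory subunit of myosin phosphatase, rose with Dex in dKO cells by 0.48 and was 1.00 higher in dKO than in control cells under Dex (limma adjusted p = 4.12e-05).

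Of the adhesion, stress fibre and actin cross-linking genes, 14 of 22 were tested, and Dex raised 4 and lowered none in dKO and raised 8 and lowered 1 in control MEFs. Over all genes 8.62% were called higher in dKO and 8.85% in control cells. The count in control cells takes in Itga7, an integrin subunit that was above background on the 3 control Dex arrays only. The median change was 0.18 in dKO and 0.40 in control cells, against 0.03 and -0.04 over all genes. Itga5, the alpha subunit of the fibronectin receptor, rose by 1.93 in dKO (limma adjusted p = 0.00361) and 1.31 in control cells (limma adjusted p = 0.0205), and by 1.10 and 1.70 without the 3 arrays. Vcl, which encodes vinculin of the adhesion plaque, rose in control cells by 0.42, Palld, the actin cross-linker palladin, by 0.58, Actn4, an actinin, by 0.51 and Itga1, a collagen receptor subunit, by 0.80. In dKO cells Sorbs3, an adaptor that binds vinculin, rose by 0.71, Itgb1, the beta partner of these integrins, by 0.44 and Actn1, an actinin, by 0.42, and none of the 3 was called without the 3 arrays. The counts depend on the arrays and the scaling: without the 3 arrays they were 1 in dKO and 7 in control cells, and under median scaling 6 and 3, with Vcl, Palld and Actn4 not called under median scaling.

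The immediate targets of SRF and its myocardin-related partners did not move 1 way. Of 11 tested (of 14), Dex raised 2 and lowered 2 in dKO cells and raised 4 and lowered 2 in control cells, against 14.6% and 20.3% of all genes called. Fos, an early SRF target, rose by 1.62 in dKO and 1.57 in control cells and was lower in dKO by changes of -0.89 under Dex and -0.94 under EtOH. Egr1 and Egr2, zinc finger factors induced through SRF, fell with Dex: Egr1 by changes of -0.59 and -0.46, and Egr2, with no dKO Dex array above background, was at least 1.64-fold lower in dKO cells and changed by -1.10 in control cells. Ccn1, a matricellular SRF target, rose by 0.66 in dKO and 1.11 in control cells, and in dKO cells was at 0.55 and not called without the 3 arrays (adjusted p = 0.123). The call of Egr1 in dKO cells was lost under median scaling, at -0.43 (adjusted p = 0.0596).

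Markers of other cells that the cultures could hold were read alongside. In bulk samples fewer cells of a type and less RNA per cell cannot be told apart. Of the endothelial markers 1 of 6 was tested, Emcn, which Dex raised by 1.86 in dKO and 1.09 in control cells. Pecam1, Cdh5, Kdr and Tie1 were at background on all arrays. Of the epithelial markers 1 of 5 was tested, Krt19, which limma did not call for Dex in either genotype. Of the pericyte and vascular mural markers, 5 of 7 were tested and Dex changed none of them by limma in either genotype, while Rgs5 and Abcc9 were at background on all arrays. Their summed signal was 1623 to 1992 in dKO Dex, 1553 to 2302 in dKO EtOH, 1427 to 1667 in control Dex and 1485 to 1506 in control EtOH, and the ranges of Dex and EtOH overlapped in both genotypes. Of the myofibroblast markers 4 of 7 were tested, and Dex lowered 2 and raised none in dKO cells and raised 1 and lowered none in control cells. The 1 raised in control cells was Postn, at 6.08 in control Dex and 5.10 in control EtOH on average. Postn was above background on no control array, so this call compares undetected readings and shows no measured rise. The myofibroblast sum was 2293 to 2777 in dKO Dex and 3565 to 3817 in dKO EtOH. It was 2496 to 3467 in control Dex and 2898 to 3342 in control EtOH. Of 8 fibroblast markers tested, Dex raised 1 and lowered 1 in dKO cells and raised 1 and lowered 3 in control cells. Both lowered counts take in Lum, which was above background on the EtOH arrays only and so passed the filter only through the EtOH groups. The fibroblast sum was 87778 to 91194 in dKO Dex and 83153 to 97092 in dKO EtOH. It was 55478 to 61944 in control Dex and 57738 to 62473 in control EtOH. This sum was thus higher in dKO than in control cells under both treatments. On the probe read for each, Mylk was higher in dKO by 0.43 under Dex and 0.34 under EtOH. Myh11 was higher by 0.40 and 0.17, and for both genes only the Dex difference was called. The part of the fibroblast sum in these differences was not tested. The fibroblast ranges of Dex and EtOH overlapped in both genotypes. Macrophage markers were also abundant, and of 6 tested Dex lowered 2 in dKO and 5 in control cells. Beside the counts of these lists, Dex lowered 5.99% of all genes in dKO and 11.4% in control cells and raised 8.62% and 8.85%. The macrophage sum was 45487 to 46827 in dKO Dex and 55629 to 73854 in dKO EtOH. It was 62371 to 74576 in control Dex and 82946 to 92709 in control EtOH. The sum was lower wherever Myh11, Lmod1 or Mylk was called higher, and also in dKO under EtOH, where no member was called. The part of these cells in the result was not tested.

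Of the skeletal and cardiac muscle markers, 7 of 20 were tested, and Myog, Myod1, Ckm, Actc1 and Actn2 were at background on all arrays. Dex raised 2 and lowered 1 of the 7 in dKO cells, where 8.62% of all genes were called higher and 5.99% lower. It raised 1 and lowered 3 in control cells, where 8.85% were called higher and 11.4% lower. The median change of the 7 was -0.05 in dKO and -0.22 in control cells. Their summed signal was 13429 to 14788 in dKO Dex and 14548 to 15813 in dKO EtOH. It was 6835 to 8186 in control Dex and 7191 to 8667 in control EtOH. Des, which encodes desmin, the intermediate filament of all muscle types, averaged 9.48 ± 0.19 in dKO Dex and 8.44 ± 0.14 in dKO EtOH, and 11.14 ± 0.17 in control Dex and 10.51 ± 0.17 in control EtOH (SD, n = 3 each). Dex raised it by 1.04 in dKO and 0.63 in control cells (limma adjusted p = 0.000345 and 0.00681), and it was lower in dKO by changes of -1.65 under Dex and -2.07 under EtOH. Acta1, the skeletal alpha-actin, was higher in dKO by 1.55 under Dex and 1.53 under EtOH. Desmin was thus called higher with Dex in both genotypes, as were Myh11, Lmod1 and Mylk, while most of its list was not. It was called lower in dKO under Dex, where Myh11 and Mylk were called higher.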

How the data were processed

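The members and the gene lists were chosen with earlier results of these data known. The intensities were deposited by the authors as mean bead signals per probe without normalization, per the file headers, with a detection p-value deposited beside each signal. The submitters' processing notes name GenomeStudio, with no version. A deposited table of normalized intensities served only as an alternative, and the sources used here do not give its steps.

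Here the signals were background corrected with limma (version 3.58.1, R 4.3.3; nec on the detection p-values, offset 16), quantile normalized and brought to log2. A probe counted as above background at a detection p under 0.01. Probes that passed this on at least 3 of 12 arrays entered the fit, and each gene was read from its kept probe with the highest mean (8420 genes). Symbols came from the platform annotation, updated by Entrez identifier for 23962 of 23978 probes. A linear model with 1 mean per group and empirical Bayes variances gave 5 comparisons, each adjusted over 8420 genes, and a fit over 12054 probes. The number of arrays, 3 per group, limits the precision, as does the spread between them. Simulated arrays were used to test the script. Same-numbered replicates were checked for pairing: the correlations of their deviations ran from -0.18 to -0.05 across treatments and from -0.05 to 0.14 between genotypes, so the numbers were not taken to pair the arrays.

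The genes named are all members, up to 4 genes per list with the smallest p in a described comparison, the defining genes of each list, marker genes at background, the checks Fkbp5, Per2, Cry1 and Cry2, and the 5 genes most alike in profile. Alternatives were no background correction, an offset of 50, median scaling, the deposited table, no filter, all probes as items, a detection p of 0.05, the mean of detected probes, eBayes with trend and robust, array weights, only the compared groups, the replicate number as a block, each array left out and the 3 arrays set apart left out.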

Additional observations from a re-analysis of the deposited data

How the results depend on the processing

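Myh11 and Lmod1 were called for Dex in both genotypes under all 26 alternatives, as was Mylk in control cells. Mylk in dKO cells was called under 25 and not with the mean of its detected probes (0.49, limma adjusted p = 0.0724). Smtn in dKO cells passed under 10 of the 26, and its values over all 26, called or not, ran from 0.27 to 1.13. The number of members called stayed at 3 for Dex in control cells and at 3 or 4 for Dex in dKO cells. For genotype under EtOH (0 members) it was 2 without background correction, with the deposited table or with array weights, 1 with the mean of detected probes, with eBayes trend and robust or without the 3 arrays set apart, and 0 to 2 when single arrays were left out. For genotype under Dex (2 members) it was 4 without background correction, with the deposited table or with array weights, 1 with a detection p of 0.05, with all probes as items or with the mean of detected probes, 0 with no filter, and 0 to 2 when single arrays were left out. For the interaction (0 members) it was 1 with array weights and 0 to 1 when single arrays were left out, the 1 being Smtn without dKO EtOH replicate 3 (1.16). With the replicate number as a block, 0 members were called for genotype under Dex, and no other count of members changed. No direction of a called member reversed. The cause of these changes was not tested.

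With median scaling the median change over all genes was 0.14 for Dex in dKO (871 genes called higher and 343 lower, against 726 and 504), -0.15 for Dex in control (482 and 1312, against 745 and 962), -0.25 for genotype under EtOH (518 and 2589, against 903 and 1333) and 0.30 for the interaction (596 and 101, against 108 and 85). The 193 genes called for the interaction became 304 without background correction, 697 with median scaling, 323 with the deposited table, 59 with no filter, 1774 with array weights, 34 with the replicate block, 32 with it within genotype, 68 without the 3 arrays and 34 to 1203 with single arrays left out. Array weights called 2818 genes for Dex in control (1707), 3160 for Dex in dKO (1230), 4146 for genotype in EtOH (2236) and 2906 for genotype in Dex (1659). For Dex in dKO, 745 were called with the block within genotype, 673 without the 3 arrays and 716 to 2210 with single arrays left out, and for genotype in EtOH 1409 without the 3 arrays and 1449 to 3124 with single arrays left out. Acta2 lies near the top of the signal range and Cnn1 at background, which limits both.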
